A study of Rattus norvegicus with 2 samples.

Results

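The genes described here encode the receptors for 4 transmitters: glutamate, GABA, glycine and acetylcholine. They were chosen by name alone, as the rows of the deposited expression table whose symbols carry the stem of an AMPA, kainate, NMDA, delta or metabotropic glutamate receptor, a GABA-A, GABA-B or glycine receptor, or a nicotinic or muscarinic acetylcholine receptor. The rule found 61 of the 18049 genes in the table. A further 12 rat genes with such names in RefSeq were not analysed here.

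Expression was compared in rat oligodendrocyte precursor cells, glia that divide and then mature into the cells that make myelin. The siHsc70 cells had been electroporated with a small interfering RNA against Hsc70, a constitutive HSP70 chaperone encoded by Hspa8, and the siSCR cells with a scrambled one. What the groups share comes from the labels: wild type pups of postnatal days 2 to 4, cortex, panning on plates coated with antibodies against GalC and then A2B5, and differentiation with 60 nM of the thyroid hormone T3 in medium lacking PDGF-AA, bFGF and NT3, sampled on day 2. Each group is 1 library, so no test between groups exists, and whether any difference below exceeds the spread between cultures was not testable.

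Oligodendrocyte precursors carry many of the receptors known from neurons. They receive synapses from axons, through which glutamate opens AMPA receptors and GABA opens GABA-A receptors. Ionotropic receptors are ion channels built of several subunits from separate genes, so that the mix of subunits sets their permeability and kinetics. Metabotropic, GABA-B and muscarinic receptors act through G proteins instead. In rodents the receptors and currents for glutamate and GABA are known to decline as precursors mature into myelinating cells.

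Total estimated counts, rounded per gene, were 18130768 in siHsc70 and 19085587 in siSCR. The targeted gene, Hspa8, was at 507 CPM in siHsc70 against 1399 CPM in siSCR, a 2.76-fold lower level (95% counting interval 2.69 to 2.83). CPM are counts scaled to library size with TMM factors, and the interval covers counting error only. Of the defining lineage markers, 7 of 8 measured oligodendrocyte genes and 4 of 8 precursor genes were at least 2-fold lower in siHsc70. Among all measured genes that share was 5.14%. The lower precursor genes were Gpr17, Lhfpl3, Sox10 and Cspg4. Pdgfra, Olig2 and Ptprz1 were lower by less than 2-fold. Olig1 was slightly higher, at 1359 CPM in siHsc70 against 1207 CPM in siSCR. The oligodendrocyte gene within 2-fold was Mog, at 10.5 CPM in siHsc70 and 10.6 CPM in siSCR. The summed level of the 9 oligodendrocyte markers was 881 TPM in siHsc70 and 4920 TPM in siSCR, and that of the 8 precursor markers was 2147 TPM and 3306 TPM. TPM are the deposited values scaled for transcript length, and only they are used to compare one gene with another. In these bulk libraries, fewer cells of a type and less RNA per cell cannot be told apart.

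Receptor genes whose 2 CPM values averaged 1 or more are called measured, and 43 of the 61 were. Of these, 3 were under 1 CPM in siHsc70 and passed only through siSCR, and 1 passed only through siHsc70. Each difference given is the log2(CPM + 1) of siHsc70 less that of siSCR, and a gene is called at least 2-fold higher or lower when that difference reaches 1 in size. The pseudocount of 1 understates the change of low genes, so some genes whose count ratio exceeds 2 do not pass.

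Receptor genes were mostly lower in siHsc70. Of the 43 measured, 17 were at least 2-fold lower, where the share among all 13518 measured genes was 5.14%. None was at least 2-fold higher, against 2.29% of all measured genes. The median difference of the receptor genes was -0.67, against -0.0034 over all measured genes. In 33 of the 43 the difference was below 0 and in 10 it was above 0, where 6794 and 6724 of all measured genes were. The counting interval of the ratio lay below 1 for 28 receptor genes (33.8% of all measured genes) and above 1 for 4 (32.5% of all measured genes). For 10 of the 17 lower genes the whole interval of the difference lay below -1. By class, the median difference was -1.03 for AMPA, -1.17 for kainate and -0.36 for NMDA receptor genes. It was 0.10 for metabotropic glutamate, -1.02 for GABA-A, -0.61 for GABA-B, -0.98 for glycine, -0.12 for nicotinic and -0.44 for muscarinic receptor genes, several of these over 2 genes only. Just outside the size rule were Grik2 at -0.99 and Gabrg1 at -0.99, and just inside were Gabrb1 at -1.03 and Grin3a at -1.04.

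The lower genes were found at low and at high levels. Of the 13 receptor genes that averaged 10 CPM or more, 7 were lower by the size rule and 0 higher, where the shares of all genes at that level were 4.59% and 1.64%. Their median difference was -1.20. Of the 30 that averaged 1 to 10 CPM, 10 were lower and 0 higher, where the shares of all genes at that level were 6.81% and 4.25%. Their median difference was -0.44. On the deposited TPM, 35 receptor genes averaged 1 TPM or more. Of these, 16 were lower and 0 higher, beside 6.04% and 1.54% of all genes, and 14 of the 16 were among the 17 lower genes above. The median over all genes moved to -0.13.

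**Figure D1:**
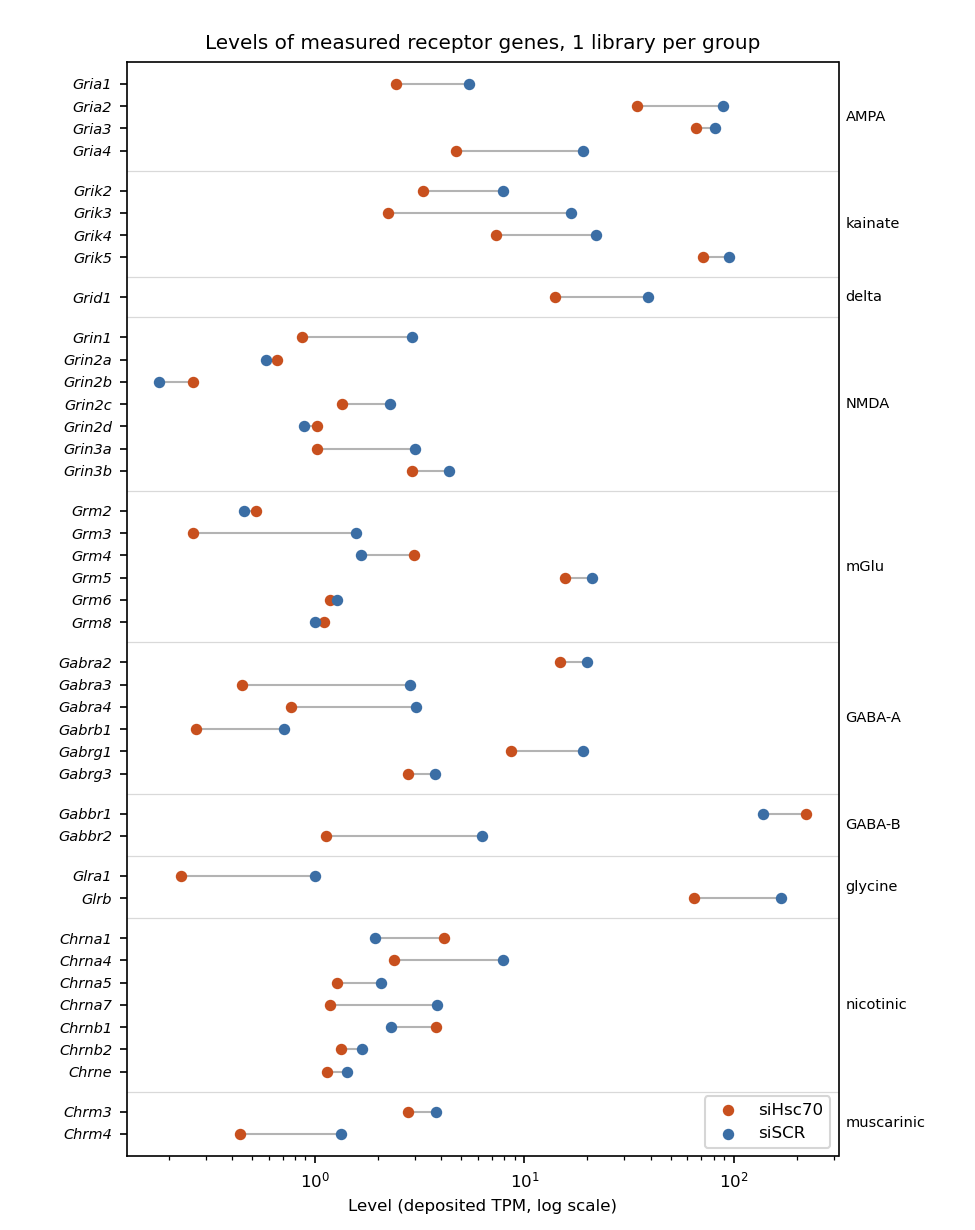
Levels of 41 measured receptor genes in deposited TPM (log axis), with genes grouped by receptor class down the page and 1 point per library, siHsc70 in orange and siSCR in blue. The siHsc70 point lies to the left of the siSCR point for most genes, and Gabbr1 is the highest gene in siHsc70, at 221.5 TPM against 137.6 TPM in siSCR.

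A few genes carried most of the receptor message. The summed level of all 61 genes was 580 TPM in siHsc70 and 826 TPM in siSCR. The 10 highest genes held 89.5% of that sum in siHsc70 and 83.7% in siSCR. In order of their mean TPM these were Gabbr1, Glrb, Grik5, Gria3, Gria2, Grid1, Grm5, Gabra2, Grik4 and Gabrg1. Gabbr1 alone made up 38.2% of the receptor sum in siHsc70 and 16.6% in siSCR. Without Gabbr1 the sum was 359 TPM in siHsc70 and 689 TPM in siSCR.

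The GABA-B receptor is an obligate pair of a ligand-binding subunit, encoded by Gabbr1, and a subunit that reaches the surface with it and couples to the G protein, encoded by Gabbr2. The promoters of these genes and of Grik3, the kainate receptor gene with the lowest ratio, are shown because the first 2 differed in opposite directions and the last had the largest difference of all measured receptor genes. Each run holds the 250 bases before the RefSeq start of the gene on its own strand (rat build GRCr8), at chr20:1499237-1499486 on the minus strand for Gabbr1, chr5:66083696-66083945 on the minus strand for Gabbr2 and chr5:143052192-143052441 on the plus strand for Grik3. Capitals mark the GC box GGGCGG on either strand.
Gabbr1: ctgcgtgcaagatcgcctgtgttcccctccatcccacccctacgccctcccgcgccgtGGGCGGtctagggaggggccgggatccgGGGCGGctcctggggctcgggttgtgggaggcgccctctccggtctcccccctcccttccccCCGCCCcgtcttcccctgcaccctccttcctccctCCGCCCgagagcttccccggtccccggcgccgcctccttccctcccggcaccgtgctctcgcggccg
Gabbr2: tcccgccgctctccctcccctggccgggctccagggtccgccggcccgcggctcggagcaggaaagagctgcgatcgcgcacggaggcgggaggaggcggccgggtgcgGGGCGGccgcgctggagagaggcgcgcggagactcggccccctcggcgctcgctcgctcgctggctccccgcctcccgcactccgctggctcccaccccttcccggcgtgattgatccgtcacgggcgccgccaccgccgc
Grik3: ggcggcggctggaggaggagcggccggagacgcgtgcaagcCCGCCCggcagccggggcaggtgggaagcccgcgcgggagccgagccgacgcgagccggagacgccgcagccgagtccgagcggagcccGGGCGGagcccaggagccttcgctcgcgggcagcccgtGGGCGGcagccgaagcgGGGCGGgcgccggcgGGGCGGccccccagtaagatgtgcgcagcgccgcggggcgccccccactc

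The GC box occurred 4 times before Gabbr1, 1 time before Gabbr2 and 5 times before Grik3. Of 4 motifs searched on both strands, 3 had no match in these windows: the E-box CAGCTG and the SOX cores ACAAAG and AACAAT. RefSeq promoters were matched by gene ID for 42 of the 61 receptor genes, 29 of them measured. The GC box was present in 14 of these 29 (48.3%) and in 30.5% of all 33469 promoters in the RefSeq set. That set takes in genes whatever their level here, while the 29 are measured genes only, so the shares come from unlike sets. CAGCTG was present in 7 of 29 (24.1%) against 12% of all promoters, ACAAAG in 1 of 29 (3.45%) against 16.3%, and AACAAT in 3 of 29 (10.3%) against 10.3%. Of the 12 promoters of genes at least 2-fold lower, 6 held the GC box, 2 held CAGCTG, 0 held ACAAAG and 2 held AACAAT. None of the 4 motifs contains another, and a match describes letters only.

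The GABA-B genes lay on opposite sides of 0. Gabbr1 (gene ID 81657) was at 509 CPM in siHsc70 against 287 CPM in siSCR, a 1.77-fold higher level (1.71 to 1.83) that did not reach the 2-fold rule. Gabbr2 (gene ID 83633) was at 3.23 CPM in siHsc70 against 16.3 CPM in siSCR, a 5.06-fold lower level (3.81 to 6.82). Per length, Gabbr1 transcripts outnumbered Gabbr2 transcripts 196 to 1 in siHsc70 and 21.8 to 1 in siSCR. Gabbr1 was thus far in excess of its partner in either library, more so in siHsc70. Kctd12, which encodes an auxiliary subunit of GABA-B receptors, was at 9.40 CPM in siHsc70 and 20.1 CPM in siSCR, a 2.14-fold lower level (1.78 to 2.58).

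AMPA receptors carry fast glutamate currents and were represented by all 4 subunit genes. Gria2, whose edited subunit makes the channel poorly permeable to calcium, was at 122 CPM in siHsc70 against 282 CPM in siSCR, a 2.31-fold lower level (2.20 to 2.43). Gria4 was at 9.40 CPM in siHsc70 against 35.6 CPM in siSCR and was 3.79-fold lower (3.20 to 4.51). Gria3 differed least, with 175 CPM in siHsc70 and 194 CPM in siSCR, a ratio of 0.899 (0.857 to 0.943). Gria1 was the lowest of the class, at 3.61 CPM in siHsc70 and 7.33 CPM in siSCR. It did not pass the size rule, with a difference of -0.85.

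The make-up of the AMPA class therefore differed between the libraries. Gria3 made up 61.3% of the class's TPM in siHsc70 and 41.8% in siSCR. The share of Gria2 was 32.1% in siHsc70 and 45.6% in siSCR, and that of Gria4 was 4.34% and 9.78%. Gria3 and Gria2 stood at 1.91 to 1 in siHsc70 and 0.919 to 1 in siSCR, so the order of the leading subunits was exchanged. The summed TPM of the class was 108 in siHsc70 and 194 in siSCR.

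Kainate receptors are related glutamate channels, in which Grik2 and Grik3 encode subunits able to form channels alone and Grik4 and Grik5 encode high-affinity subunits that need them. Grik3 (gene ID 298521) was at 4.0 CPM in siHsc70 against 27.9 CPM in siSCR, a 6.96-fold lower level (5.43 to 9.03). Grik4 was 2.64-fold lower (2.28 to 3.05), at 14.2 CPM in siHsc70 against 37.5 CPM in siSCR. Grik5, the leading gene of the class, was at 140 CPM in siHsc70 and 168 CPM in siSCR, a ratio of 0.830 (0.788 to 0.875). Grik2 was at 5.17 CPM in siHsc70 and 11.3 CPM in siSCR, with a difference of -0.99.

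Among the 4 kainate genes analysed, Grik5 held 84.9% of the TPM in siHsc70 and 67.1% in siSCR. Grik1 was not analysed here, so these are not shares of the whole class. Grik3 held 2.63% in siHsc70 and 11.8% in siSCR. As in the AMPA class, the gene with the smallest difference was among the most abundant of its class.

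**Figure D2:**
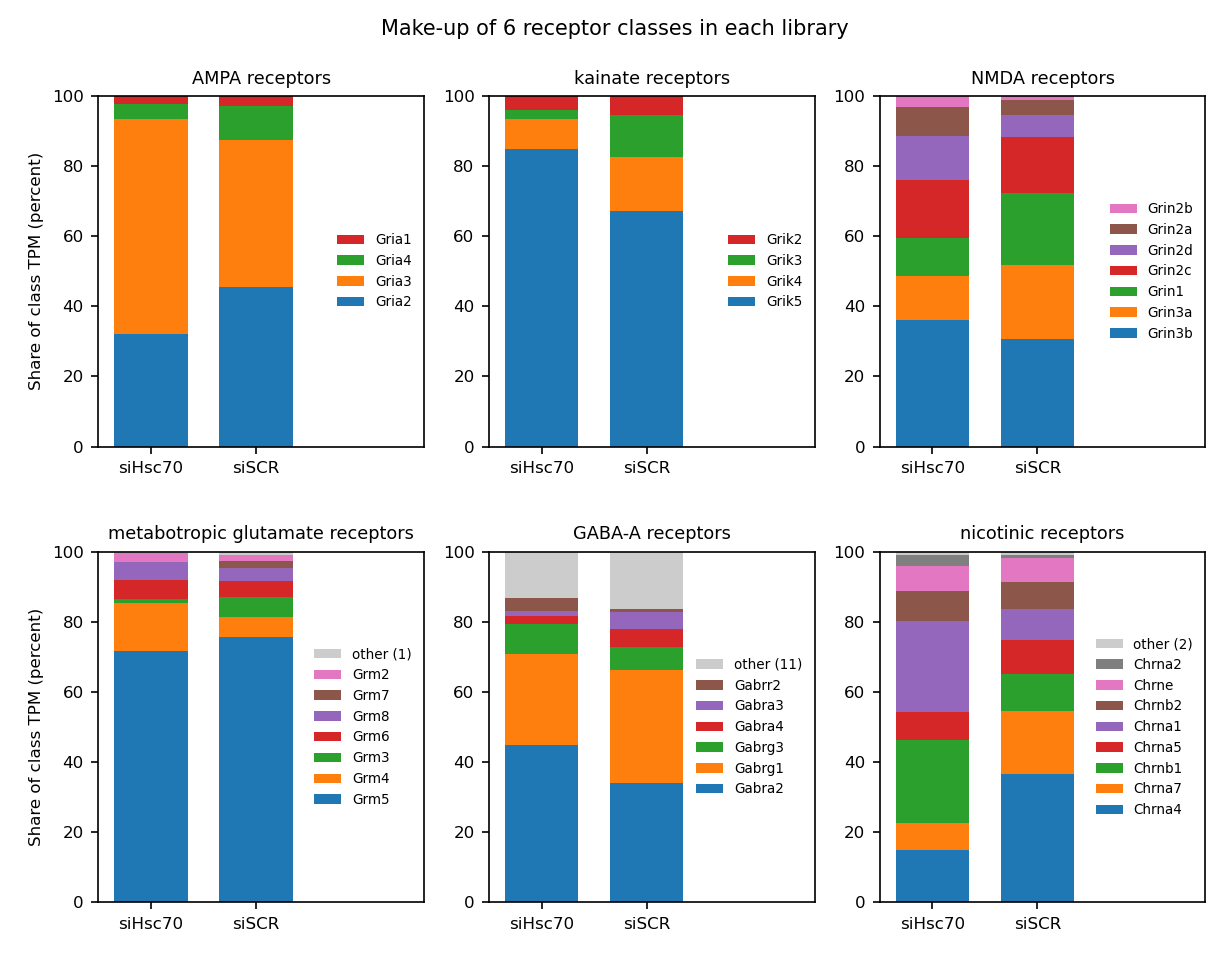
Share of genes in the summed deposited TPM of their receptor class (percent), with genes not drawn by name as one grey block and siHsc70 to the left of siSCR in each of 6 classes. Gria3 takes the largest AMPA share in siHsc70 (61.3%) and Gria2 in siSCR (45.6%), and Chrna1 is the largest nicotinic share in siHsc70 (26.1%) where Chrna4 is in siSCR (36.7%).

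The delta receptors, classed with the ionotropic glutamate receptors by sequence and known as binding partners of synaptic organisers, include Grid1. It was at 25.4 CPM in siHsc70 against 63.6 CPM in siSCR and was 2.51-fold lower (2.25 to 2.80).

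NMDA receptors pass calcium when glutamate and a co-agonist bind together, and every functional channel needs the subunit of Grin1. All 7 genes of the class were measured and all were low, between 0.26 and 2.92 TPM in siHsc70 and between 0.18 and 4.35 TPM in siSCR. Grin1 was at 1.95 CPM in siHsc70 against 5.77 CPM in siSCR, a 2.96-fold lower level (2.01 to 4.47). Grin3a, encoding a glycine-binding subunit, was 2.68-fold lower (1.75 to 4.21), at 1.67 CPM in siHsc70 against 4.47 CPM in siSCR. The glutamate-binding subunits are encoded by the Grin2 genes. Grin2a was at 2.56 CPM in siHsc70 and 2.34 CPM in siSCR, Grin2b at 1.89 and 1.20 CPM, and Grin2d at 5.00 and 4.52 CPM, with intervals of the ratio that include 1. Grin2c was at 3.28 CPM in siHsc70 and 4.94 CPM in siSCR, a ratio of 0.664 (0.472 to 0.929). Grin3b, the highest of the class per length, was at 4.78 CPM in siHsc70 and 6.44 CPM in siSCR, a ratio of 0.742 (0.557 to 0.985).

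The metabotropic glutamate receptors signal through G proteins, with Grm5 coupled to phospholipase C and Grm2, Grm3, Grm4, Grm6 and Grm8 inhibiting adenylyl cyclase. Grm5, known as a receptor of oligodendrocyte precursors, led the class at 49.4 CPM in siHsc70 and 60.5 CPM in siSCR, a ratio of 0.817 (0.748 to 0.892). Grm3 was at 1.5 CPM in siHsc70 against 8.26 CPM in siSCR, a 5.50-fold lower level (3.64 to 8.61). Grm3 overlaps Elapor2 in the RefSeq annotation. Elapor2 was itself at 19.7 CPM in siHsc70 and 77.0 CPM in siSCR, and the strand setting of the counting is not given in the sources used here, so the value of Grm3 is uncertain. Grm4 went the other way, at 4.56 CPM in siHsc70 and 2.29 CPM in siSCR, a ratio of 1.99 (1.37 to 2.95) with a difference of 0.76. Grm6 was at 4.62 CPM in siHsc70 and 4.47 CPM in siSCR, a ratio of 1.03 (0.754 to 1.41). Grm8 and Grm2 were at 1.95 and 1.22 CPM in siHsc70, against 1.61 and 0.987 CPM in siSCR. Grm2 passed the filter on low values only through siHsc70, and without it the class median was 0.038. Of the 6 measured genes, 1 was at least 2-fold lower and 0 were higher, against 5.14% and 2.29% of all measured genes. The class median of 0.10 turned to -0.12 with a minimum mean of 0.5 CPM or none, and a minimum of 5 CPM left Grm5 alone, at -0.29.

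**Figure D3:**
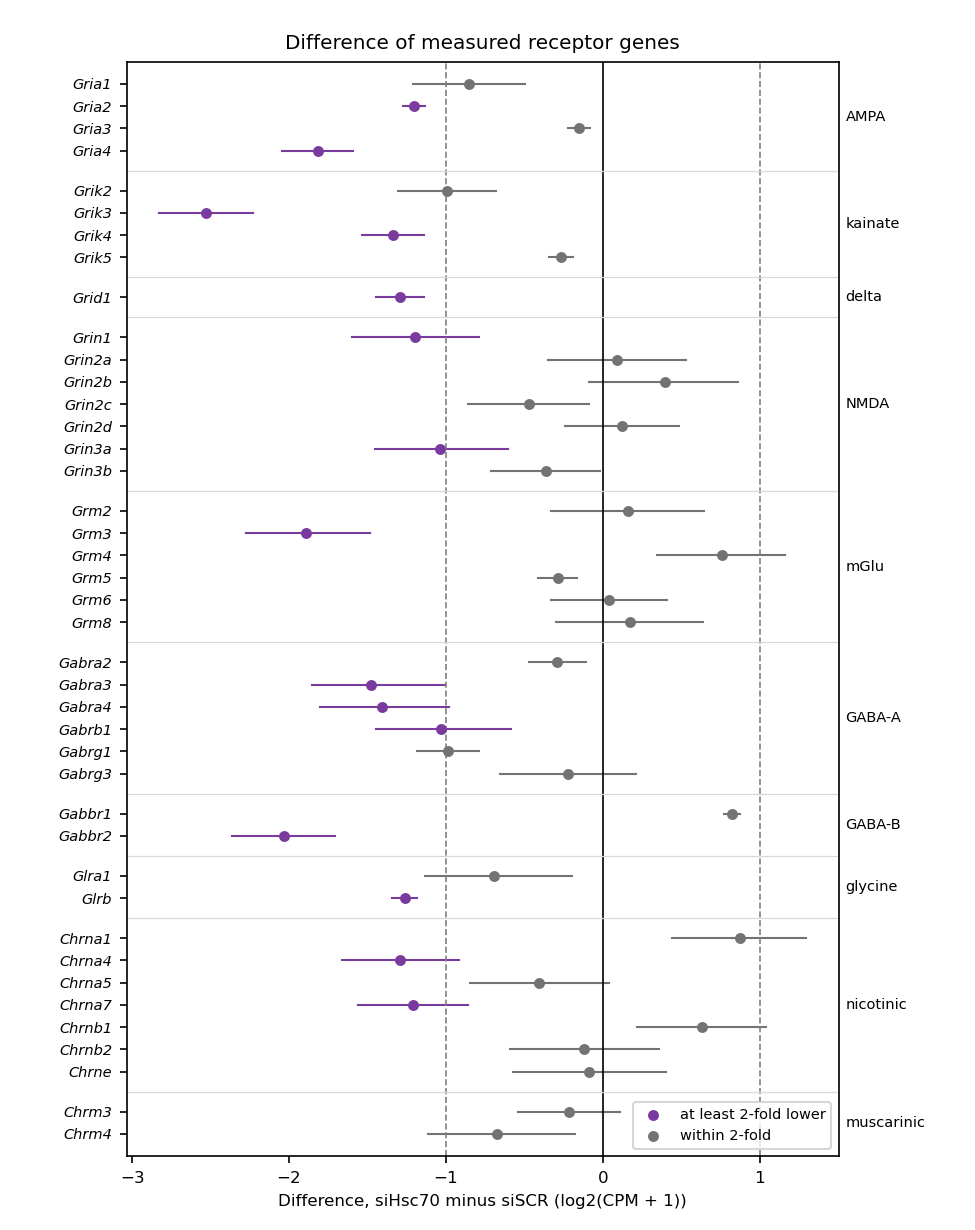
Differences of 41 measured receptor genes, siHsc70 minus siSCR on the log2(CPM + 1) scale, each with its 95% counting interval as a line, purple where the gene is at least 2-fold lower and grey otherwise. The 15 purple genes spread over 9 of the 10 classes, Grik3 lies furthest to the left at -2.53, and Gabbr1, Grm4, Chrna1 and Chrnb1 are the 4 genes whose interval lies above 0.

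GABA-A receptors are chloride channels, usually built of alpha, beta and gamma subunits. The table holds 17 of their genes. Of the 7 that were measured, 4 were at least 2-fold lower, where the share among all measured genes was 5.14%. One of the 4, Gabra3, passed the filter on low values only through siSCR, and of the 6 genes with at least 1 CPM in each library 3 were lower. Gabra2 led the class, at 22.4 CPM in siHsc70 and 27.6 CPM in siSCR, a ratio of 0.812 (0.712 to 0.926). Gabrg1, encoding a gamma subunit typical of glia, was at 15.7 CPM in siHsc70 and 32.2 CPM in siSCR, a ratio of 0.489 (0.423 to 0.564) that fell just outside the size rule.

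Other GABA-A genes were low. Gabra3 was at 0.612 CPM in siHsc70 against 3.48 CPM in siSCR, a 5.69-fold lower level (2.99 to 11.9). Gabra4 was 3.71-fold lower (2.43 to 5.83), at 1.56 CPM in siHsc70 against 5.77 CPM in siSCR. Gabrb1 was 2.73-fold lower (1.75 to 4.40), at 1.5 CPM in siHsc70 against 4.11 CPM in siSCR. Gabrg3 was at 2.39 CPM in siHsc70 and 2.96 CPM in siSCR, with a ratio whose interval includes 1.

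Glycine receptors are chloride channels in which Glrb encodes the beta subunit that anchors them to gephyrin. Glrb (gene ID 25456) was one of the highest receptor genes, at 104 CPM in siHsc70 against 252 CPM in siSCR, a 2.41-fold lower level (2.29 to 2.55). The alpha subunits that bind glycine were scarce. Glra1 was at 0.778 CPM in siHsc70 and 1.87 CPM in siSCR, a ratio of 0.416 (0.207 to 0.790), and Glra4 had 1 count in each library. Glra1 passed the filter on low values only through siSCR. The class median was -0.98 with Glra1, and without it Glrb alone was left, at -1.26. Glrb stood at 282 times the TPM of Glra1 in siHsc70 and 168 times in siSCR. These values rest on 14 counts of Glra1 in siHsc70 and 36 in siSCR. By scaled counts the proportion of the genes hardly differed between the libraries, with ratios of 0.414 for Glrb and 0.416 for Glra1. Glra2 and Glra3 were not analysed here.

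Some receptor genes lie side by side in the rat genome, as the order of protein-coding genes in the RefSeq table (GRCr8) shows. Gria2 and Glrb are direct neighbours, and their levels kept the same proportion, with 0.535 TPM of Gria2 for each TPM of Glrb in siHsc70 and 0.525 in siSCR. Gabrb1 and Gabra4 are neighbours and were both at least 2-fold lower. Gabra2 and Gabrg1 are neighbours too, with differences of -0.29 and -0.99. The low GABA-A genes Gabrr2 and Gabrr1 are also adjacent and were not measured, with 20 and 15 counts in siHsc70 against 10 and 4 counts in siSCR.

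Nicotinic receptors are acetylcholine-gated cation channels, and the neuronal and the muscle-type subunits are given apart. Chrna4, a subunit of the main high-affinity receptor of the brain, was at 2.61 CPM in siHsc70 against 7.85 CPM in siSCR, a 3.00-fold lower level (2.15 to 4.26). Chrna7, which forms calcium-permeable channels alone, was 2.71-fold lower (2.01 to 3.70), at 3.34 CPM in siHsc70 against 9.04 CPM in siSCR. Chrna5 and Chrnb2, which can join Chrna4 in one receptor, were at 1.95 and 1.5 CPM in siHsc70 against 2.91 and 1.72 CPM in siSCR, and the intervals of their ratios include 1.

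Of the muscle-type subunits, Chrna1 was at 3.89 CPM in siHsc70 against 1.66 CPM in siSCR, a ratio of 2.34 (1.52 to 3.68) with a difference of 0.88. Chrnb1 was at 4.17 CPM in siHsc70 against 2.34 CPM in siSCR, a ratio of 1.78 (1.22 to 2.64). Neither reached the size rule. Chrne was at 1.11 CPM in siHsc70 and 1.25 CPM in siSCR. The summed level of the 4 muscle-type genes analysed was 9.10 TPM in siHsc70 and 5.85 TPM in siSCR, and that of the 6 neuronal ones 6.75 TPM and 15.7 TPM. Chrnd, Chrna3, Chrna6 and Chrnb3 were among the genes not analysed here. Of 5 muscle markers 1 was measured, Myod1 at 1.67 CPM in siHsc70 and 0.832 CPM in siSCR. The 3 muscle markers analysed here summed to 1.98 TPM in siHsc70 and 1.25 TPM in siSCR. The part of muscle-type expression in the result was not tested.

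Overlapping genes touch some of these values. Chrnb1 overlaps Zbtb4, which was at 131 CPM in siHsc70 and 101 CPM in siSCR. Chrna4 overlaps Col20a1, at 9.23 CPM in siHsc70 and 12.5 CPM in siSCR. In all, 7 receptor genes overlap another protein-coding gene of the table: Chrm4, Chrna4, Chrnb1, Chrne, Grin2d, Grin3b and Grm3. Grin3b overlaps Tmem259, at 137 CPM in siHsc70 and 135 CPM in siSCR, and Grin2d overlaps Grwd1, at 22.1 and 17.9 CPM. Without these 7 genes 15 of 36 measured receptor genes were at least 2-fold lower, beside 5.13% of all genes, a setting added after the data had been seen.

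Muscarinic receptors, the G protein-coupled receptors for acetylcholine, were low. Chrm3, known to mediate cholinergic signals in oligodendrocyte precursors, was at 6.01 CPM in siHsc70 and 7.12 CPM in siSCR, a ratio of 0.843 (0.649 to 1.09). Chrm4 was at 0.834 CPM in siHsc70 and 1.92 CPM in siSCR, a ratio of 0.434 (0.221 to 0.810). Chrm4 passed the filter on low values only through siSCR. The class median was -0.44 with Chrm4, and without it Chrm3 alone was left, at -0.21. The gene that overlaps Chrm4, Mdk, was at 46.4 CPM in siHsc70 and 22.4 CPM in siSCR. Chrm1, with 3 counts in siHsc70 and 4 in siSCR, had a ratio of 0.802 (0.118 to 4.74), and Chrm2 had 2 and 1 counts.

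The 18 receptor genes that were not measured had at most 20 counts in siHsc70 and 27 in siSCR. Besides those named above they included Grm7, the GABA-A genes Gabra5, Gabrb2, Gabre, Gabrp, Gabrq and Gabrr3, and the nicotinic genes Chrna2, Chrnb4 and Chrng. For 16 of them the counting interval of the ratio included 1. The other 2 were Grm7, with 4 counts in siHsc70 and 27 in siSCR, and Gabrr1. At or under 3 counts in both libraries were 7 genes, and no fold is given for them.

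Receptors work with auxiliary subunits and scaffolds, and with the enzymes and transporters that make and clear their transmitters. Among the 72 measured genes of these lists, 11 were lower by the size rule and 2 higher, against 5.14% and 2.29% of all genes. Their median difference was -0.075. Of 20 measured genes for auxiliary subunits and other proteins that act on AMPA or kainate receptors, 6 were lower and 1 was higher.

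Lrrtm2, encoding a synaptic adhesion protein that holds AMPA receptors in place, was at 20.6 CPM in siHsc70 against 149 CPM in siSCR and was 7.24-fold lower (6.5 to 8.09). Shisa7, encoding an auxiliary subunit reported for AMPA and GABA-A receptors, was 4.48-fold lower (3.79 to 5.31), at 9.51 CPM in siHsc70 against 42.6 CPM in siSCR. Frrs1l, which acts in the assembly of AMPA receptors, was at 7.40 CPM in siHsc70 against 27.7 CPM in siSCR and was 3.75-fold lower (3.09 to 4.56). The higher gene was Nptxr, encoding a membrane-bound pentraxin that clusters AMPA receptors, at 737 CPM in siHsc70 against 347 CPM in siSCR, a ratio of 2.12 (2.06 to 2.19). Outside the rule for named genes and chosen after their values were seen are a pair of genes for transmembrane AMPA receptor regulatory proteins. Cacng4 was at 13.9 CPM in siHsc70 and 41.4 CPM in siSCR, and Cacng7 was at 217 CPM in siHsc70 and 235 CPM in siSCR.

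Among 27 measured scaffold and anchoring genes, 3 were lower and 0 higher, against 5.14% and 2.29% of all measured genes. The lower genes were Dlgap4, Homer1 and Kctd12, the last given above. Dlgap4, whose product binds scaffolds of the PSD-95 family, was at 69.1 CPM in siHsc70 against 159 CPM in siSCR, a 2.31-fold lower level (2.16 to 2.47). Homer1, whose product binds group I metabotropic receptors, was 2.20-fold lower (2.00 to 2.42), at 35.3 CPM in siHsc70 against 77.5 CPM in siSCR. Gphn, which encodes the glycine and GABA-A receptor anchor gephyrin, was within 2-fold at 51.3 CPM in siHsc70 and 86.6 CPM in siSCR. It was named after its values were seen.

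Other lists hold the genes that make, break down or carry the transmitters. Of 16 measured genes of synthesis and breakdown, 1 was lower (6.25%) and 0 higher, near the 5.14% and 2.29% of all measured genes. The lower gene was Aldh5a1, which completes the breakdown of GABA. It was at 26.3 CPM in siHsc70 against 59.0 CPM in siSCR, 2.24-fold lower (2.01 to 2.50). Of 9 measured transporters 1 was lower and 1 higher, a count too small to set against those shares. Slc1a1, a glutamate uptake carrier, was 3.33-fold lower (3.00 to 3.70), at 25.7 CPM in siHsc70 against 85.6 CPM in siSCR. Slc7a11, which exports glutamate in exchange for cystine, was at 1528 CPM in siHsc70 against 677 CPM in siSCR, a ratio of 2.26 (2.21 to 2.30).

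**Figure D4:**
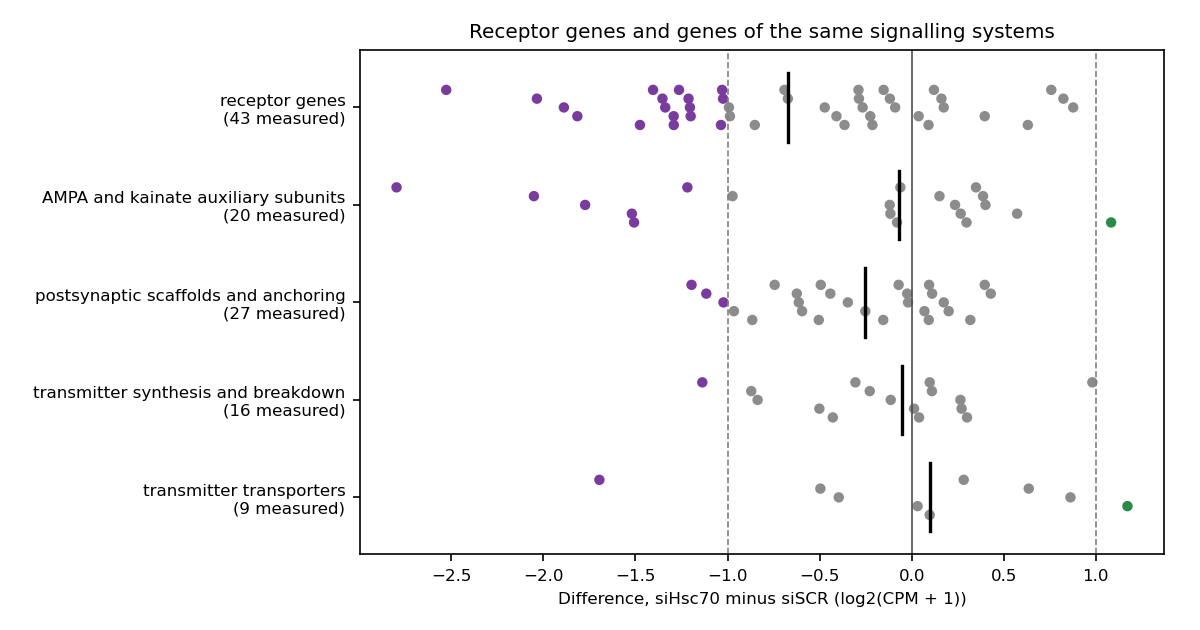
Difference of each measured gene, siHsc70 minus siSCR on the log2(CPM + 1) scale, for the receptor genes and 4 lists of genes of the same signalling systems, with 1 point per gene, the median as a black bar and dashed lines at the 2-fold rule (purple points are lower, green points higher). The receptor genes have the lowest median (-0.67), and the medians of the other lists lie between -0.25 and 0.098.

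Neurons and astrocytes express many of the same receptors, so their markers stand beside these results. Of 16 neuronal markers 13 were measured, and 2 of these were lower and 0 higher, against 5.14% and 2.29% of all measured genes. For 6 the counting interval of the ratio lay above 1 and for 5 below 1 (32.5% and 33.8% of all measured genes). The ratio was 2.17 (1.69 to 2.81) for Gad2 and 2.00 (1.68 to 2.40) for Snap25. It was 0.188 (0.152 to 0.230) for Dcx and 0.344 (0.306 to 0.387) for Elavl3, the lower genes. The list summed to 397 TPM in siHsc70 and 501 TPM in siSCR. The vesicular transporter genes that define glutamate and GABA neurons were near 0, with Slc17a7 and Slc32a1 at 0 counts in siHsc70 and at most 0.17 TPM in siSCR, and Slc17a6 at 0.06 and 0.03 TPM. A count of 0 allows a level of up to 0.167 CPM in siHsc70 and 0.156 CPM in siSCR. Of 12 astrocyte markers 11 were measured, 2 of them (Gfap and Aqp4) lower and 0 higher, against 5.14% and 2.29% of all measured genes. The interval of the ratio lay above 1 for 6 of the 11 and below 1 for 4. The list summed to 2696 TPM in siHsc70 and 3330 TPM in siSCR, of which Gfap made up 481 TPM and 1126 TPM. The 8 fibroblast and mural markers summed to 36.3 TPM in siHsc70 and 16.8 TPM in siSCR. Of the 4 measured, 1 was higher and 0 lower, against 2.29% and 5.14% of all measured genes. The higher gene was Col1a1, at 73.8 CPM in siHsc70 against 24.3 CPM in siSCR, a ratio of 3.04 (2.74 to 3.39). For 3 of the 4 the interval lay above 1 and for 1 it included 1. Of those not measured, Dcn had 1 count in siHsc70 and 9 in siSCR, with an interval below 1. Acta2 had 13 counts in siHsc70 and 2 in siSCR, with an interval above 1. Lum had 0 and 2 counts and Rgs5 had 2 and 1, with intervals that include 1. Only 4 of 8 microglial and 4 of 6 endothelial markers were analysed here, so their sums cover part of each list. Each sum was at most 5.24 TPM in either library, with Cdh5 at 0 in siHsc70 and Aif1 at 0 in siSCR. The part of these cells, and of the lower precursor and oligodendrocyte markers, in the receptor values was not tested.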

How the data were processed

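RNA sequencing libraries of siHsc70 and siSCR cells (1 each) were compared from 1 table of the whole series. Per the file headers, the authors deposited estimated counts per gene, FPKM and TPM for each library. The counts need not be whole (26.7% of values in siHsc70 and 26.5% in siSCR are not). For alignment, counting, annotation and strand, the tools and settings were not given in the sources used here. A mouse build, mm39, is named in the submitters' processing notes, although the gene IDs are rat (16783 of 18049 matched RefSeq, GRCr8), so coordinates and gene order come from RefSeq (GRCr8), not from the deposited files.

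Estimated counts were rounded and scaled with TMM factors from edgeR 4.0.16 in R 4.3.3 (0.992 for siHsc70, 1.01 for siSCR). Fold values are ratios of scaled counts without a pseudocount, with 95% exact Clopper-Pearson intervals that cover counting error only. A count of 0 allows up to 3 counts. Class shares use the deposited TPM. The deposited FPKM were an alternative for differences only, since within a library they are in proportion to TPM. The procedure was tested on simulated counts. The genes, lists and motifs were chosen with earlier results of these data known.

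Measured receptor genes are named, except some that are not reported here but stay in the counts and medians, with intervals for those past the 2-fold rule and the 3 highest of each class by TPM. Of each partner list up to 3 lower and 3 higher genes are named, and genes outside these rules are marked as such. The alternatives changed the pseudocount, minimum level, scaling (total count, upper quartile or DESeq2 1.42.0 size factors), unit or size of change.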

Additional observations from a re-analysis of the deposited data

How the results depend on the processing

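With 1 library per group, none can be left out. No paired analysis was possible because each group has 1 library. The number of receptor genes at least 2-fold lower was 17 in the main comparison. It was 10 with a minimum mean of 5 CPM, where 20 were measured and 4.83% of all genes were lower. With the deposited FPKM it was 9, where 25 were measured and 4.09% of all genes were lower. Under the other settings that kept the 2-fold rule it lay between 14 and 21. The looser 1.5-fold rule is a different count, and 22 of 43 receptor genes were lower by it. Receptor genes at least 2-fold higher, 0 in the main comparison, numbered 1 of 43 when the pseudocount was 0.1, beside 3.83% of all genes. With a 1.5-fold rule 4 of 43 were higher, beside 9.65% of all genes. Among the partner lists, the auxiliary list's higher gene was lost with the deposited TPM (0). The scaffold list had 5 lower genes with the deposited TPM and 9 with a 1.5-fold rule. The synthesis and breakdown list had 2 lower genes with a pseudocount of 0.1 or the deposited TPM and 3 with a 1.5-fold rule, and 1 higher gene with a pseudocount of 0.1, upper-quartile scaling or a 1.5-fold rule. Transporters had 3 higher genes with a 1.5-fold rule. The cause was not tested. The median of the receptor genes stayed below 0 throughout (-1.10 to -0.27). Over 6 settings of pseudocount, scaling or unit, the 17 lower genes stayed below 0. Grm6 alone of the 43 changed sign, with the deposited TPM. Of the class medians, the metabotropic one turned to -0.12 with a minimum of 0.5 CPM or none and to -0.29 with 5 CPM. The muscarinic median was -0.21 without Chrm4, both with 1 CPM required in each library and without overlapping genes, and -0.13 with no minimum. The NMDA median moved to -0.74 with the deposited TPM. The GABA-A median was -0.33 with a minimum of 0.5 CPM, -0.24 with none and -0.59 with the deposited FPKM, and the GABA-B median was -0.27 with FPKM. A minimum of 5 CPM gave -1.26 for glycine and -1.25 for nicotinic genes, and Glrb alone was left for glycine at -1.36 with TPM and -1.24 with FPKM. With at least 1 CPM required in each library, a setting added after the data had been seen, 16 of 39 receptor genes were lower. The share of all genes was 4.82% there. Low counts limit the values of the 30 genes under 10 CPM.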
